A study of Homo sapiens with 5 samples.

Results

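Transcript levels of 5 genes of desmosomes and hemidesmosomes, DSP, PERP, PKP1, PKP4 and DST, were followed across 5 lines of HMLE, human mammary epithelial cells that were immortalised in culture. They were the genes of a list of 7 that had at least 1 probe set annotated with that gene alone, out of 14916 named genes in the deposited table. The other 2 listed genes, LAMB3 and COL7A1, had a probe set annotated with 2 gene symbols and were not analysed here. Each line was measured on 1 Affymetrix array. The control was a line with LACZ, which encodes a bacterial enzyme used as a reporter. In each of the 4 factor lines a single transcription factor was overexpressed, either FOXQ1, SNAI1, TWIST1 or ZEB2, and such factors drive the epithelial to mesenchymal transition (EMT). All 5 lines shared the HMLE background and received no treatment, and the labels do not say which promoter drove each factor or whether a line was 1 clone. The study set out to find factors up- or downregulated across these EMT models.

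Desmosomes join neighbouring epithelial cells: desmosomal cadherins bind plakoglobin and plakophilins on the inner face of the membrane, and these bind desmoplakin, which holds the keratin filaments. Hemidesmosomes fix the basal side of the cell to the basement membrane through an integrin, plectin and an epithelial form of dystonin, which also hold keratin. In mammary epithelium both structures are features of cells that keep their contacts, and EMT is known for the loss of such contacts.

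Levels are given as the authors deposited them and were taken to be log2 values, so a difference of 1 is 2-fold if the base is 2. Differences are the level in a factor line minus that in the LACZ line, and all 4 share the same LACZ array. With 1 array per line there was no replicate error, no test and no p-value, and only differences of 2-fold or more were called. A call also required the brighter array of the pair to reach a floor of 4.72, the median of the mean levels of all named genes. The main probe set of each of the 5 genes reached the floor on 5 of 5 arrays. Levels of different genes were not compared with each other, because their probes differ.

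The labels were checked first. The FOXQ1 gene was at 6.23 in the FOXQ1 line and at most at 3.61 elsewhere, and TWIST1 and ZEB2 were highest on their own arrays, at 9.96 and 7.39. The latter 2 are a weaker check, since TWIST1 was also at 9.18 on SNAI1 and ZEB2 at 7.03 on TWIST1 and 6.85 on FOXQ1, all within 2-fold of the level on their own array. On LACZ, TWIST1 was at 5.55 and ZEB2 at 3.57. All 4 factor arrays were higher, with TWIST1 at 8.2 or more and ZEB2 at 6.23 or more. A factor line is thus named for the factor introduced and can also carry more TWIST1 and ZEB2 transcript. The SNAI1 gene was not analysed here. The 6 measured epithelial markers were lower than LACZ on all 4 factor arrays, and their mean level was 12.51 on LACZ and 3.54 to 4.53 in the factor lines. Of 5 measured mesenchymal markers, 4 were higher on all 4 factor arrays, and their mean level was 9.83 on LACZ and between 13.21 and 14.02 elsewhere. None of 3 endothelial markers reached the floor on any array. Of 5 leukocyte markers 3 stayed below the floor, and the mean level of the list was between 3.87 and 5.2, although LAPTM5, a lysosomal protein among them, was at 10.45 on FOXQ1. The 5 measured stromal fibroblast markers had a mean level of 6.15 on LACZ and of 7.87 to 9.43 in the factor lines, where 2 were higher throughout, and COL1A2 is in both this list and the mesenchymal one. The 3 measured melanocyte and neural markers had a mean level between 4.33 and 5.3. TYRP1 was below the floor on every array, and MLANA was between 4.72 and 5.19. MITF was between 4.12 and 6.83. It was called lower on FOXQ1, at -1.52, and higher on TWIST1 and ZEB2, at 1.19 and 1.02. The ZEB2 value fell to 0.95 with another scaling.

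The promoters of 3 of the genes are shown because the overexpressed factors are DNA-binding proteins with known target motifs: SNAI1, TWIST1 and ZEB2 bind E-boxes and FOXQ1 binds forkhead motifs. DSP and PERP are the genes that were lower on all 4 factor arrays, and DST is the gene whose level differed least. Each line gives the 250 bases before the annotated start in RefSeq (GRCh38.p14), 5′ to 3′ on the strand of the gene, with E-box and forkhead matches in capitals. The DSP stretch is chr6:7541421-7541670 on the + strand and the PERP stretch is chr6:138107420-138107669 on the - strand. The DST stretch, before the first of its 3 listed starts, is chr6:56954831-56955080 on the - strand. Which of these starts serves the epithelial form of DST was not examined, so the stretch shown may belong to other forms.
DSP: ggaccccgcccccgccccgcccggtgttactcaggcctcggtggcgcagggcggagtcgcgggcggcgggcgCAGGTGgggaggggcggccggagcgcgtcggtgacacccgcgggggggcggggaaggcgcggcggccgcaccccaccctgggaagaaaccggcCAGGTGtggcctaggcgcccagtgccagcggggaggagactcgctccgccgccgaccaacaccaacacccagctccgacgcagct
PERP: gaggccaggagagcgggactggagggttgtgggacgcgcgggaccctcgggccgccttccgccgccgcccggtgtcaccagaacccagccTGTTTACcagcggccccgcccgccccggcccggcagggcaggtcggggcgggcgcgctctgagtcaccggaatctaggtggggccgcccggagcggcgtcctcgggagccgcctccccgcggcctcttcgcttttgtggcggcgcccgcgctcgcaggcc
DST: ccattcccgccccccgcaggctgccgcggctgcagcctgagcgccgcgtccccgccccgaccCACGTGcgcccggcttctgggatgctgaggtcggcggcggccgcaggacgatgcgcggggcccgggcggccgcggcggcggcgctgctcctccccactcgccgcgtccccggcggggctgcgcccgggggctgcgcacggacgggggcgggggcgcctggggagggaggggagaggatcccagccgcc

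Matches to 3 motifs were sought on both strands in windows of 300 bases, from 250 before to 50 after each start, of which the 5 genes had 8. The strong E-box CAGGTG (or CACCTG) occurred 2 times in the DSP window, beginning 178 and 85 bases before the start, and in no window of the other 4 genes. It occurred in 20.6% of all 35116 promoter windows, and 3.49% held it 2 or more times. The general E-box CANNTG, which includes CAGGTG, was found in 68.7% of all windows, in the PKP1 window as CAGCTG 41 bases into the transcript, and in all 3 DST windows. The forkhead motif GTAAACA (or TGTTTAC) occurred 1 time, in the PERP window, beginning 160 bases before the start, against 3.42% of all windows. Neither PKP4 window held any of the motifs. The GC content was 77% in the DSP and PERP windows, 67.3% for PKP1, 74% and 71.7% for PKP4 and 80% in the DST window shown, all above the median of 58.7% for all windows, while the other DST windows had 46.3% and 39.3%. These matches are letters in a sequence and not measured binding.

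On the 4 factor arrays, DSP and PERP were lower than on LACZ without exception, PKP4 was lower to a smaller degree on FOXQ1 and SNAI1, PKP1 was higher on ZEB2, and DST lay within 2-fold on every pair of arrays. Of the 5 genes, 3 were called lower on FOXQ1, where 12.3% of the 8495 named genes that were at or above the floor on at least 1 array were called lower. On SNAI1 3 were lower, against 14.1% of those genes, but only 2, DSP and PERP, under each other scaling and with the median of probe sets. On TWIST1 2 were lower, against 7.42%, but 3, with PKP4 added, after quantile normalization over the named genes. On ZEB2 2 were lower, against 7.59%. None was higher on FOXQ1, SNAI1 or TWIST1, where 11.5%, 7.47% and 12.8% of genes were higher, and 1 was higher on ZEB2, against 11.2%. The 2 genes lower on all 4 arrays, DSP and PERP, stand beside 4.01% of genes for which this held. The 5 genes were chosen for their function and with earlier results of these data known. These counts therefore describe the genes and are no test of the group. The median difference of the 5 genes was -1.2 with FOXQ1, -1.02 with SNAI1, -0.88 with TWIST1 and -0.22 with ZEB2. Over the 8495 genes it was -0.01, -0.16, 0.03 and 0.03 in the same order. A median of 5 genes is the value of 1 gene, here PKP4 on FOXQ1, SNAI1 and TWIST1 and DST on ZEB2. The PKP4 difference on TWIST1 was -0.13 with the median of probe sets. These medians therefore do not show a shift of the group.

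**Figure D1:**
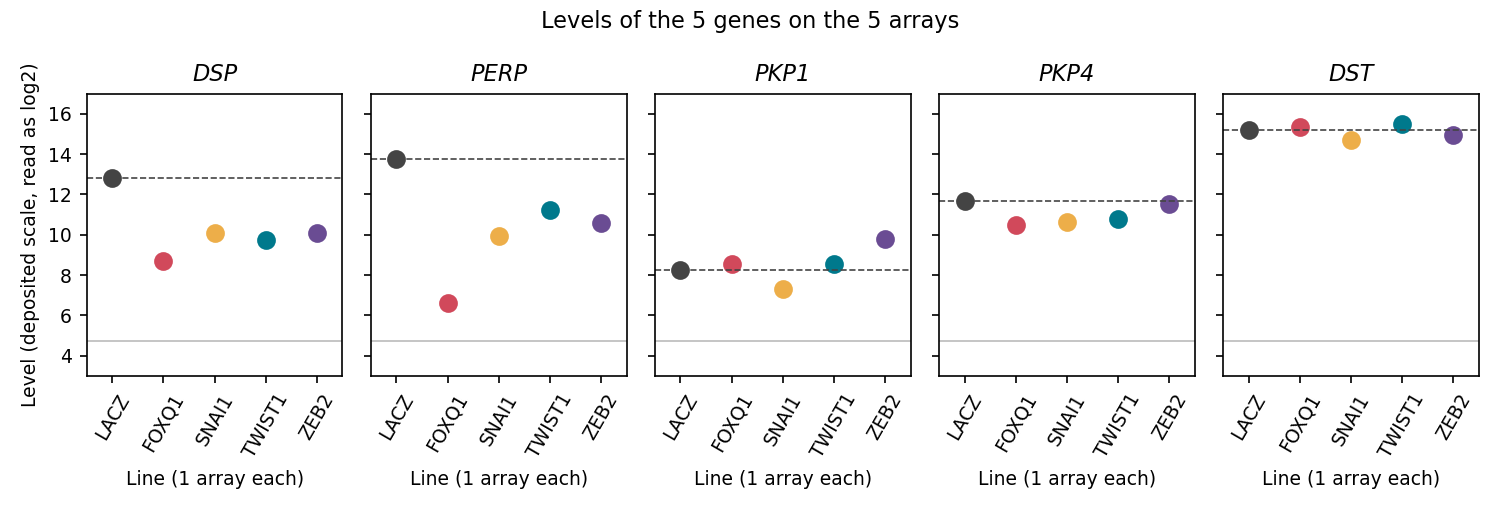
Level of each gene (main probe set, deposited scale read as log2) on the 5 arrays, 1 point per array, with the LACZ level as a dashed line and the floor of 4.72 as a grey line. All 4 factor arrays lie below LACZ for DSP and PERP, with FOXQ1 lowest at 8.72 and 6.61, while the DST points span 0.79.

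DSP encodes desmoplakin, the plaque protein that ties desmosomes to keratin filaments (chromosome 6, 7541671 to 7586714). Its level was 12.81 on LACZ, 8.72 with FOXQ1, 10.07 with SNAI1, 9.76 with TWIST1 and 10.09 with ZEB2. LACZ was the highest array by 2.72, the SNAI1, TWIST1 and ZEB2 arrays lay within 0.33 of each other, and FOXQ1 was lowest. The differences from LACZ were -4.09 with FOXQ1, -2.74 with SNAI1, -3.05 with TWIST1 and -2.72 with ZEB2, or 17-fold, 6.68-fold, 8.28-fold and 6.59-fold lower. On FOXQ1 the gene ranked 83 from the lowest difference among the 8495 genes, and on the other arrays 181, 77 and 111. Even its lowest level, 8.72, was well above the floor of 4.72, so a signal remained on every array.

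PERP encodes a membrane protein with several membrane spans that desmosomes need for their assembly and that was first described as a target of p53 (chromosome 6, 138088505 to 138107419). Its level was 13.76 on LACZ, 6.61 with FOXQ1, 9.94 with SNAI1, 11.23 with TWIST1 and 10.57 with ZEB2. The spread over the arrays was 7.15, the widest of the 5 genes, and FOXQ1 stood 3.33 below the next lowest array, SNAI1. The differences from LACZ were -7.15, -3.82, -2.53 and -3.19 in the order FOXQ1, SNAI1, TWIST1 and ZEB2. As folds these are 142, 14.1, 5.78 and 9.13. The FOXQ1 level lies nearest to the floor, and how exact each fold is was not measured. PERP ranked 20 from the lowest among the 8495 genes on FOXQ1 and 91, 108 and 84 on SNAI1, TWIST1 and ZEB2. Among the factor lines, SNAI1 and ZEB2 differed by 0.63 and TWIST1 and ZEB2 by 0.66, both under 2-fold. TWIST1 was 1.29 above SNAI1, a difference that other scalings of the arrays reduced to as little as 0.75.

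DSP and PERP thus shared LACZ as their highest and FOXQ1 as their lowest array. FOXQ1 was 2-fold or more below each of the other 4 arrays for these 2 genes, which held for 2.74% of the 8495 genes. For PERP the smallest distance from another array was 3.33, and it was at least 3.33 under every scaling. For DSP it was 1.04, from TWIST1, and it was 0.95 after quantile normalization and 0.83 after quantile normalization over the named genes, so this call was lost. The order of the remaining factor lines was not the same: for DSP the next lowest array was TWIST1, and for PERP TWIST1 was the highest factor array. The 6 epithelial markers were lower on the same arrays, with a mean level of 4.22 with FOXQ1, 3.54 with SNAI1, 4.23 with TWIST1 and 4.53 with ZEB2. Of these, EPCAM, ESRP1, GRHL2 and RAB25 were below the floor in every factor line, so the order of these means is not firm. The part of a general loss of epithelial genes in the values of DSP and PERP was not tested. In such bulk RNA, fewer cells that express a gene and less RNA per cell cannot be told apart.

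**Figure D2:**
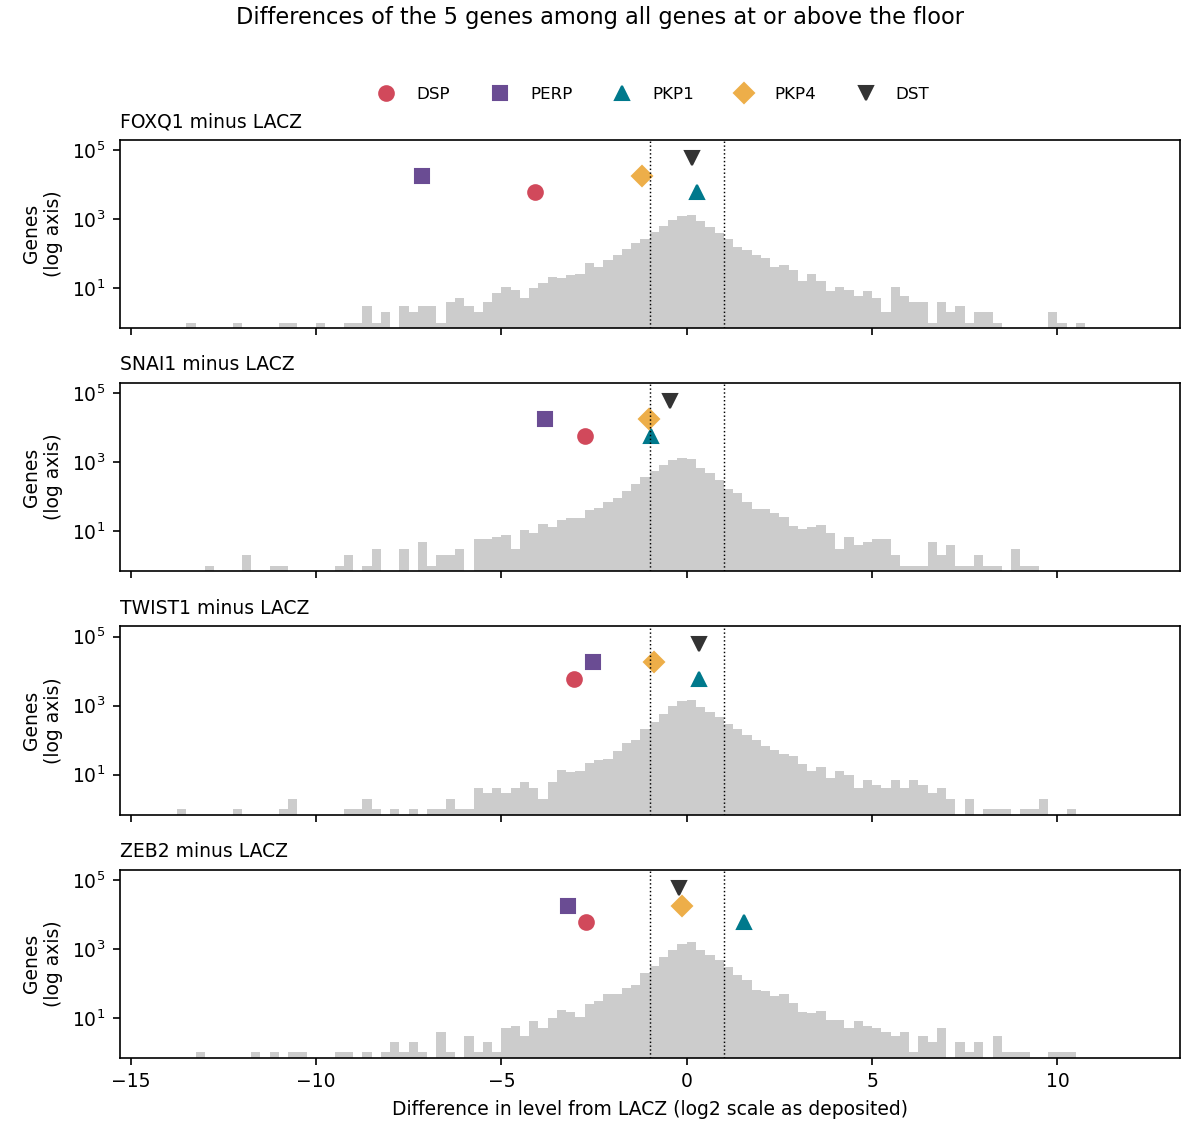
Difference in level from LACZ of the 5 genes (symbols, placed above the bars only for visibility) and of all 8495 genes that were at or above the floor on at least 1 array (grey bars, log axis), 1 panel per factor array, with dotted lines at 2-fold. DSP and PERP lie in the lower tail in all 4 panels, and PERP lies furthest out on FOXQ1, at -7.15.

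Plakophilins are armadillo proteins that link desmosomal cadherins to desmoplakin, and PKP1 is the form typical of stratified epithelium (chromosome 1, 201283506 to 201332989). PKP1 had a level of 8.25 on LACZ, 8.53 with FOXQ1, 7.3 with SNAI1, 8.57 with TWIST1 and 9.79 with ZEB2. The LACZ, FOXQ1 and TWIST1 arrays lay within 0.32 of each other, with SNAI1 below them and ZEB2 above. The difference from LACZ was 1.54 on ZEB2, or 2.91-fold higher, which ranked 460 from the highest of the 8495 genes. On SNAI1 it was -0.95, just short of 2-fold, and on FOXQ1 and TWIST1 it was 0.28 and 0.32. ZEB2 stood 1.22 above the next array, TWIST1, and was thereby 2-fold or more above each other array, which held for 1.02% of the 8495 genes. The widest gap was between ZEB2 and SNAI1, at 2.49 or 5.62-fold. No factor array had PKP1 called lower, while DSP, its binding partner in the desmosomal plaque, was called lower on all 4.

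PKP4, also named p0071, is a relative of the plakophilins that is found at adherens junctions as well as desmosomes (chromosome 2, 158456952 to 158681429). Its main probe set had a level of 11.67 on LACZ, 10.47 with FOXQ1, 10.65 with SNAI1, 10.79 with TWIST1 and 11.54 with ZEB2. LACZ and ZEB2 lay within 0.13 of each other and the other 3 arrays lay between 0.75 and 1.2 below them. The differences from LACZ were -1.2 with FOXQ1, -1.02 with SNAI1, -0.88 with TWIST1 and -0.13 with ZEB2. The call on SNAI1 was lost under every other scaling and with the median of the probe sets, where the difference lay between -0.93 and -0.53. On TWIST1 the range was from -1.16 to -0.13, which crosses 2-fold.

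PKP4 had 3 probe sets, and the other genes had 1 each. The second had levels of 5.58 on LACZ, 4.31 with FOXQ1, 5.05 with SNAI1, 5.45 with TWIST1 and 5.84 with ZEB2, near the floor. The third was below the floor on all arrays, at 4.56, 4.52, 3.36, 4.42 and 4.57 in the same order. The first 2 probe sets were both more than 2-fold lower on FOXQ1, at -1.2 and -1.27, whereas the third differed by -0.04 there. On SNAI1 the differences of the 3 probe sets were -1.02, -0.53 and -1.2. The probe sets thus gave different orders of the lines, and those near or below the floor have no firm order.

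**Figure D3:**
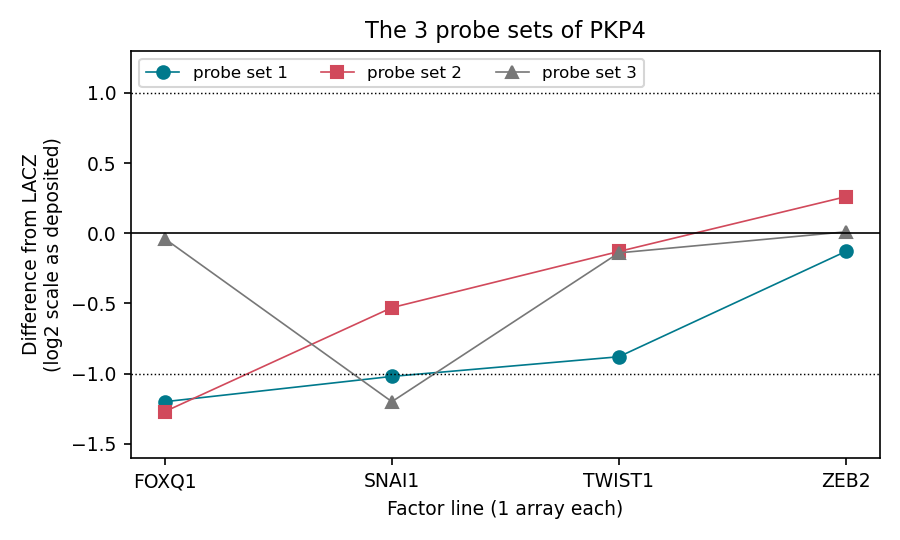
Difference from LACZ of the 3 probe sets of PKP4 on each factor array, numbered from the highest mean level, with dotted lines at 2-fold. Probe sets 1 and 2 are lowest on FOXQ1, probe set 3, below the floor on all arrays, is lowest on SNAI1, and all 3 lie near 0 on ZEB2.

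DST encodes dystonin, a large cytoskeletal linker of the plakin family whose epithelial form is part of the hemidesmosome and whose other forms serve nerve and muscle (chromosome 6, 56457996 to 56954830). Its level was 15.17 on LACZ, 15.32 with FOXQ1, 14.71 with SNAI1, 15.5 with TWIST1 and 14.95 with ZEB2. No 2 neighbours in the order of the lines were further apart than 0.24. The differences from LACZ were 0.15, -0.46, 0.33 and -0.22 in the order FOXQ1, SNAI1, TWIST1 and ZEB2, and none of the 10 pairs of arrays reached 2-fold. By contrast 8 of 10 pairs reached 2-fold for PERP, 7 for DSP, 6 for PKP1 and 3 for PKP4. Pairs were not counted over all genes, so how usual such counts are was not examined. Which pairs reached 2-fold for PERP, DSP, PKP1 and PKP4 changed with the scaling. The distance of TWIST1 from SNAI1 fell to as little as 0.75 for PERP and 0.87 for PKP1. That of TWIST1 from FOXQ1 fell to 0.83 for DSP, and that of ZEB2 from FOXQ1 to 0.93 for PKP4. The 1 DST probe set sums over the forms of the gene it covers, so a change of form at a steady total would not be seen in this value.

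The other genes of these junctions were taken from lists of partners. Of 14 other desmosome genes 2 were measured. CDSN, corneodesmosin, an adhesive protein of the desmosomes of the outer epidermis, was at 6.34 on LACZ and at 5.18 to 5.6 in the factor lines, and was called lower on TWIST1, at -1.16. KAZN, kazrin, a protein that binds the desmosomal plakin periplakin, was below the floor on every array. The desmosomal cadherins and plakoglobin were not analysed here.

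Of 13 other genes of hemidesmosomes and anchoring complexes 4 were measured. ITGA6 encodes the alpha subunit of the hemidesmosomal integrin, and its level was 14.76 on LACZ, 13.27 with FOXQ1, 9.92 with SNAI1, 13.29 with TWIST1 and 14.23 with ZEB2. SNAI1 was the lowest array for this gene, with differences from LACZ of -1.49, -4.84, -1.47 and -0.53 in the order FOXQ1, SNAI1, TWIST1 and ZEB2. PLEC, the keratin linker plectin of the hemidesmosome, was within 2-fold of LACZ on all 4 arrays, at 0.67, 0.28, 0.96 and 0.63. ERBIN, a scaffold protein that binds hemidesmosome components, was called higher on TWIST1 and ZEB2, at 1.3 and 1.09. FRAS1, a basement membrane protein, was called lower on SNAI1, at -1.34. FOXQ1 and TWIST1 each had 1 of the 4 genes called lower, SNAI1 had 2 and ZEB2 had 0, and TWIST1 and ZEB2 each had 1 called higher. Of the 8495 genes, 12.3%, 14.1%, 7.42% and 7.59% were called lower on FOXQ1, SNAI1, TWIST1 and ZEB2. On TWIST1 and ZEB2, 12.8% and 11.2% were called higher. With 4 genes, these counts are no result about the group. The medians of the 4 genes were -0.01, -0.53, 0.13 and 0.05, and the FOXQ1 and ZEB2 medians changed sign with the scaling. On the SNAI1 array the median of all genes was itself -0.09, and it was 0.03 after quantile normalization over the named genes.

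Plakins are the protein family of desmoplakin and dystonin, and 2 of 5 other members were measured. EPPK1, epiplakin, a plakin that binds keratin filaments, was at 9.5 on LACZ, 5.65 with FOXQ1, 4.53 with SNAI1, 6.16 with TWIST1 and 5.97 with ZEB2. Like DSP it was lower on all 4 arrays, at -3.85, -4.97, -3.34 and -3.53, but its lowest array was SNAI1, where it was under the floor. The plakins DSP and EPPK1 were thus lower on all 4 factor arrays while the plakins DST and PLEC were within 2-fold of LACZ on all 4.

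Laminins are trimeric proteins of the basement membrane to which hemidesmosomes attach. Of 9 subunit genes other than those of the epithelial laminin, 6 were measured, with 2 higher and 1 lower on FOXQ1, 1 higher on TWIST1, and none called on SNAI1 or ZEB2. Of the 8495 genes, 11.5% were higher and 12.3% lower on FOXQ1, and 12.8% were higher on TWIST1. With 6 genes, these counts are no result about the group. LAMB1 was at 11.69 on LACZ, 9 with FOXQ1, 11.17 with SNAI1, 12.1 with TWIST1 and 12.39 with ZEB2, so FOXQ1 was the only array more than 2-fold from LACZ, at -2.69. LAMC1, the gamma chain of many laminins, was higher on FOXQ1 and TWIST1, at 1.18 and 1.74, and differed by 0.9 on both SNAI1 and ZEB2. On SNAI1 it reached 1.16 with another scaling. LAMA4 was called higher on FOXQ1, where its level of 4.93 was just above the floor.

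Catenins couple the cadherins of adherens junctions to the cytoskeleton, and none of the 4 measured was called on any array. CTNNB1, beta-catenin, had levels between 13.2 and 13.87, and CTNNA1, alpha-catenin, between 12.82 and 13.81. The catenins CTNNA2 and CTNND2 were below the floor on all arrays and so could not be called. Of the 8495 genes, 7.42% to 14.1% were called lower and 7.47% to 12.8% higher, depending on the factor array. With 2 catenins that reached the floor, the absence of calls is no result about the group. Of the p53 family, known regulators of PERP, only TP73 was measured, at 3.84 on LACZ, 5.37 with FOXQ1, 3.67 with SNAI1, 5.58 with TWIST1 and 3.63 with ZEB2. Its levels stayed near the floor, and it was called higher on FOXQ1 and TWIST1, which were the lowest and the highest factor arrays for PERP. A link between TP73 and PERP was not tested.

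**Figure D4:**
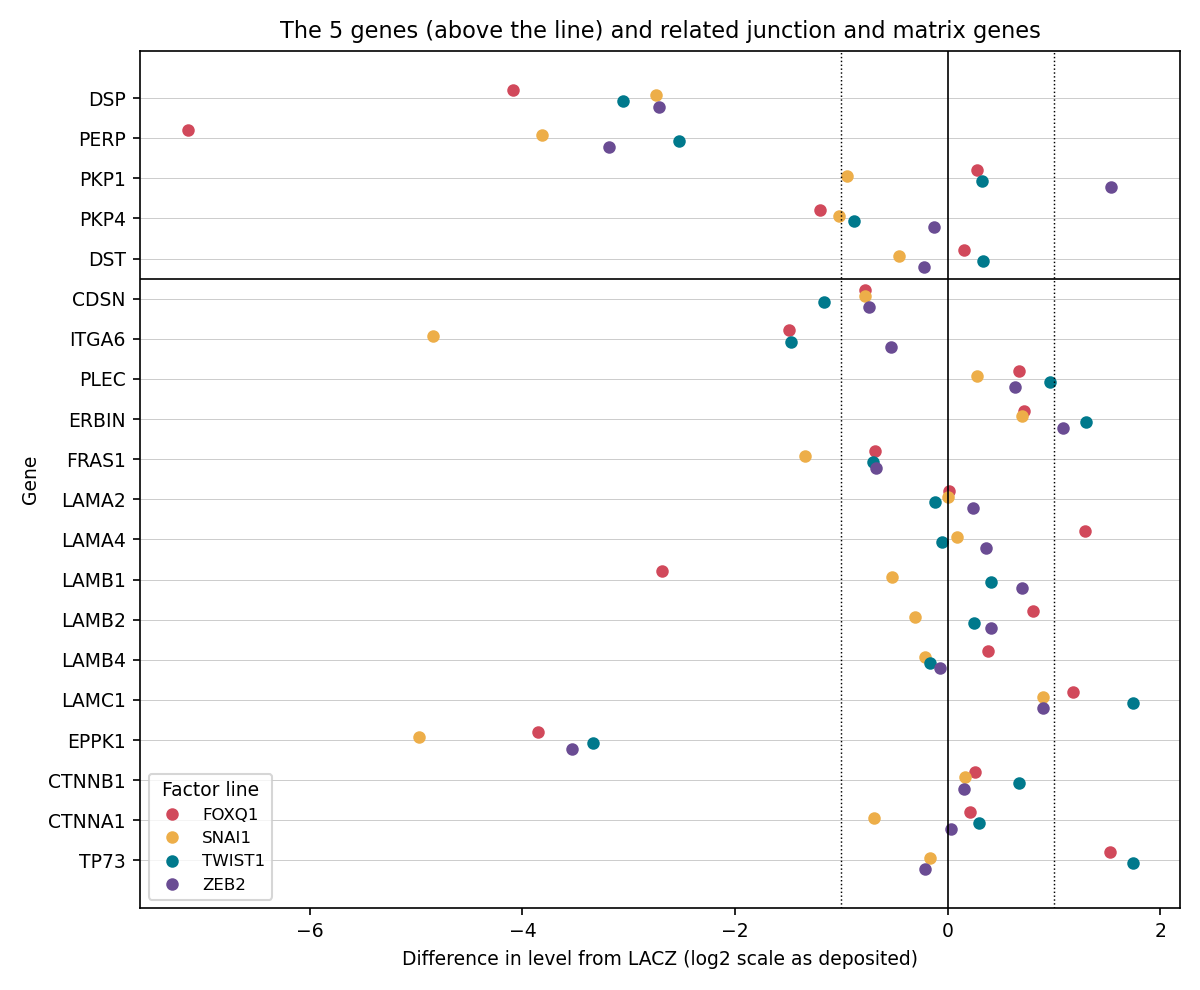
Difference from LACZ on each factor array for the 5 genes (above the horizontal line) and for the listed partner genes that were at or above the floor on at least 1 array, with dotted lines at 2-fold. DSP, PERP and EPPK1 lie left of the dotted line for all 4 factors, the point furthest from 0 is SNAI1 for ITGA6 and FOXQ1 for LAMB1, and DST, PLEC and the catenins lie between the dotted lines for all 4.

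The genes most like each of the 5 in pattern were found among 5405 other protein-coding genes that reached the floor, by the root mean square difference of levels centred on their own mean over the 5 arrays. This is a description over 5 arrays, and a close match is likelier for genes that vary little. Nearest to DSP were BAIAP2L1, at 0.275, FAT2, an atypical cadherin, at 0.306, and ITGA2, an integrin subunit, at 0.32. BAIAP2L1 was at 12.76 on LACZ and 7.98, 9.28, 9.02 and 9.46 on FOXQ1, SNAI1, TWIST1 and ZEB2. PERP had no close neighbour: the nearest were F3, tissue factor, at 0.704, the chemokine CXCL8 at 0.72 and HOMER1 at 0.777. All 3 also had FOXQ1 as their lowest array, with differences from LACZ of -5.2, -5.11 and -6. Nearest to PKP1 were ZDHHC2, HGD and PLPBP, at 0.125, 0.135 and 0.163. ZDHHC2 differed from LACZ by 1.7 on ZEB2 and by -1.15 on SNAI1. Nearest to PKP4 were XRCC4, RFESD and GEMIN6, at 0.077, 0.083 and 0.096, and nearest to DST were ZNF638, NDUFA2 and RLF, at 0.031, 0.048 and 0.05. By the same measure DSP and PERP were 1.24 apart, further than DSP and PKP4, at 1.02. The closest pair of the 5 genes was PKP4 and DST, at 0.595. None of the 5 genes was among the 3 nearest of another, which was likely beforehand with 5405 genes to choose from.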

How the data were processed

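RNA of 5 HMLE-derived lines was hybridised to Affymetrix arrays, 1 per line, and lines were grouped by the sample labels. The values the authors deposited, 1 per probe set and array, were taken to be log2 values because they run from 1.99 to 19.73; no source used here gives the base. Per the submitters' processing notes it was made with the Transcriptome Analysis Console and hg38, and the normalization is not given in the sources used here. Array medians lay between 4 and 4.05. The number of arrays limits the precision.

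The table held 65521 probe sets of chromosomes 1 to 8 and some of 9. A platform annotation gave 1 gene symbol to 16126, several to 419 and none to 48976. After matching to RefSeq (GRCh38.p14) 15570 probe sets of 14916 genes were used. A gene took its probe set with the highest mean. Promoter windows came from RefSeq (GRCh38.p14) and matched all 5 genes by symbol. The members and gene lists were chosen with earlier results of these data known. All 14916 are called the named genes. Those described singly in the text were the members, the measured genes of the lists, the overexpressed factors and the 3 genes nearest in pattern to each member.

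Alternatives were centring on the median gene, quantile normalization, loess against the mean array (span 0.3), the median of probe sets, thresholds of 3-fold and 1.5-fold, no floor, and a floor at percentile 75. Quantile normalization over the named genes, and the same alternatives for the comparison with each other array, were added after seeing the data. Values were computed in Python 3.11.15 with pandas 2.3.3 and numpy 2.4.6, the loess with statsmodels 0.14.6, and figures with matplotlib 3.10.9.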

Additional observations from a re-analysis of the deposited data

How the results depend on the processing

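DSP and PERP were lower than LACZ on all 4 factor arrays under each alternative run, 3-fold included, with differences between -4.15 and -2.47 for DSP. At 3-fold the count of genes higher on ZEB2 was 0 in place of 1, since PKP1 was lost, and the count above each other array on ZEB2 was 0. The count below each other array on FOXQ1 was 1 in place of 2, PERP alone, with quantile normalization, with quantile normalization over the named genes and at 3-fold. On SNAI1 2 in place of 3 were lower than LACZ under each other scaling, with the median of probe sets and at 3-fold. At 1.5-fold 4 were lower on SNAI1, and at 3-fold 2 in place of 3 were lower on FOXQ1. The TWIST1 array had 3 lower in place of 2, with PKP4 gained, after quantile normalization over the named genes and at 1.5-fold. Of 90 recomputed member counts 85 stayed within 1.5 times, and of 100 member differences 99 moved by less than 1.5-fold. The exception was PKP4 on TWIST1, at -0.13 with the median of probe sets. These totals are a loose measure. A count that went from 3 to 2 is among the 85, as is a count of 0 that stayed at 0. For a gene with 1 probe set, the median of probe sets could not change the difference. Over all genes, 3-fold left between 268 and 530 lower genes per array, where 2-fold gave between 630 and 1196, and 1.5-fold gave between 1325 and 2240. Quantile normalization over the named genes moved the share of higher among called genes from 34.7% to 49.7% on SNAI1 and from 63.3% to 53% on TWIST1. The cause of these shifts was not tested. No paired analysis was possible because each line had 1 array. Signal over background was judged only by the floor, so low probe sets, such as those of PKP4, limit what can be said.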
